A study of Mus musculus with 6 samples.

Results

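The miRNAs described here come from 5 hairpins that lie inside the Clcn5 gene on mouse chromosome X. The 10 members are both arms of each: mmu-miR-532-5p and mmu-miR-532-3p, mmu-miR-188-5p and mmu-miR-188-3p, mmu-miR-362-5p and mmu-miR-362-3p, mmu-miR-501-5p and mmu-miR-501-3p, and mmu-miR-500-5p and mmu-miR-500-3p, written below without the species prefix. They were chosen by name from the 1881 mouse miRNAs on the arrays, with the differences between sunitinib and control already known for some of them. The differences between the groups are therefore given as a description and not as a test. All 10 were on the arrays. Of these, 3 were well above background and could be compared, out of 237 miRNAs compared in all. Left ventricle tissue came from male C57BL/6 mice that received sunitinib, a tyrosine kinase inhibitor used against cancer, or vehicle. Each group had 3 samples, and each sample was labelled with Cy3 and hybridised to its own array from 200 ng of total RNA. The labels give no dose, duration or age, and they do not say that each sample was a separate animal, so the spread between samples may in part be technical. The strain field gives C57BL/6 for all 6 samples, while the numbering of the mice in the description field changes from sample to sample.

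A miRNA gene is transcribed as a hairpin, from which Dicer cuts a duplex. Either strand of the duplex, named 5p or 3p after its arm, can be loaded into an Argonaute protein, and bases 2 to 8 of the loaded strand, the seed, pair with target messenger RNAs. Hairpins that lie close together in one host gene can be made from one transcript, so their arms are often measured side by side. Clcn5 encodes an endosomal chloride and proton exchanger that is mutated in Dent disease in humans. Among the members, miR-532-3p has been described in mouse heart muscle cells as a repressor of the apoptosis inhibitor Nol3 (ARC), and miR-188-3p as a repressor of the autophagy gene Atg7. In mouse neurons, miR-501-3p represses the glutamate receptor gene Gria1.

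In the RefSeq table (assembly GRCm38.p6) all 5 hairpins lay within Clcn5 and on its strand, the minus strand of chromosome X, with no other gene overlapping them. Read along the transcript, the order was Mir532, Mir188, Mir362, Mir501 and Mir500, over 10815 bases. Gaps of 345 bases separated Mir532 from Mir188, 5942 bases Mir188 from Mir362, 630 bases Mir362 from Mir501 and 3468 bases Mir501 from Mir500. The table held mature sequences for 9 of the 10 members, all but miR-532-5p. The sequences below, with the seed in capitals, are the 3p arms that carried signal or share a seed with one that did, the 5p pair with a common seed, and miR-532-3p.
miR-362-3p (chrX:7241984-7242005, minus strand): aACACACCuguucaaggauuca
miR-500-3p (chrX:7237695-7237716, minus strand): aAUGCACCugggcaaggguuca
miR-501-3p (chrX:7241270-7241291, minus strand): aAUGCACCcgggcaaggauuug
miR-362-5p (chrX:7242019-7242042, minus strand): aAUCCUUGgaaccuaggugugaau
miR-500-5p (chrX:7237730-7237754, minus strand): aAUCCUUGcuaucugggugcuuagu
miR-532-3p (chrX:7248419-7248440, minus strand): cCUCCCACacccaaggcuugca

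The 9 sequences fell into 7 seeds. miR-500-3p and miR-501-3p shared one seed and were identical at 18 of 22 positions, the differences being U9C, G18A, C21U and A22G (miR-500-3p first, counted from the 5′ end). miR-362-5p and miR-500-5p shared another. miR-362-3p had a seed of its own among the members and was identical to miR-500-3p at 17 of 22 positions. The array probes pair with the 3′ part of the miRNA. The brightest probe of miR-362-3p paired with bases 3 to 22 and that of miR-500-3p with bases 7 to 22. Their sequences, complementary to the 2 mature sequences above, were as follows.
miR-362-3p probe: tgaatccttgaacaggtgtg
miR-500-3p probe: tgaacccttgcccagg
The miR-500-3p probe had at least 3 mismatches to every other member with a sequence in the table, and the miR-362-3p probe at least 5. The files map the miR-500-3p probe to chrX:6814874-6814888 on the minus strand (mm9).

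All 6 arrays lay on 1 slide, and 10.94% to 11.98% of the miRNA spots of an array were well above background, which the scanner software sets at 13 times the background SD. No spot of the 10 members was saturated. The 6 cardiomyocyte miRNAs listed as markers of the tissue, among them miR-1a-3p and miR-133a-3p, were well above background on all 6 arrays. Values below are background-subtracted probe signals, scaled between arrays and put on the log2 scale, of the brightest probe of each miRNA. A miRNA was compared only where this probe passed the background limit on all 3 arrays of sunitinib, of control or of both. Differences are sunitinib minus control, with standard errors from limma's fit across all 237 miRNAs.

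miR-532-5p was lower in sunitinib hearts. Its log2 signal was 3.88, 3.88 and 4.01 in sunitinib replicates 1 to 3, against 4.34, 4.63 and 4.41 in control replicates 1 to 3. Every sunitinib array lay below every control array. The difference was -0.54 (SE 0.09, n = 3 each), which is 1.45-fold lower. Within an array the 15 spots of this probe ran on the linear scale from 10.5 to 20.5 in sunitinib replicate 2 and from 18.2 to 31.8 in control replicate 2. The overlap was wider between sunitinib replicate 3, at 12.7 to 23.8, and control replicate 1, at 15.4 to 24.6. Spots of the 2 groups thus overlapped while their array means did not. The median spot was 14.2, 15.0 and 15.7 in sunitinib, against 20.7, 24.1 and 21.4 in control. On sunitinib replicate 2 the probe was well above background in 8 of 15 spots, and on the other 5 arrays in all 15.

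miR-362-3p was also lower, by a smaller amount. It had 4.69, 4.72 and 4.58 in sunitinib replicates 1 to 3, against 4.94, 5.14 and 5.03 in control replicates 1 to 3. The groups did not overlap. The difference was -0.38 (SE 0.08, n = 3 each), or 1.30-fold lower. The median spot on the linear scale was 25.8, 26.5 and 24.9 in sunitinib and 32.1, 35.5 and 33.8 in control.

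miR-500-3p, from the last hairpin of the row, had 4.97, 5.11 and 4.97 in sunitinib, against 5.28, 5.51 and 5.24 in control. Here too each sunitinib array was below each control array. The nearest pair, sunitinib replicate 2 and control replicate 3, lay within the SD of the control group of each other. That SD was 0.14, against 0.08 in sunitinib. The difference was -0.32 (SE 0.09, n = 3 each), or 1.25-fold lower.

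**Figure D1:**
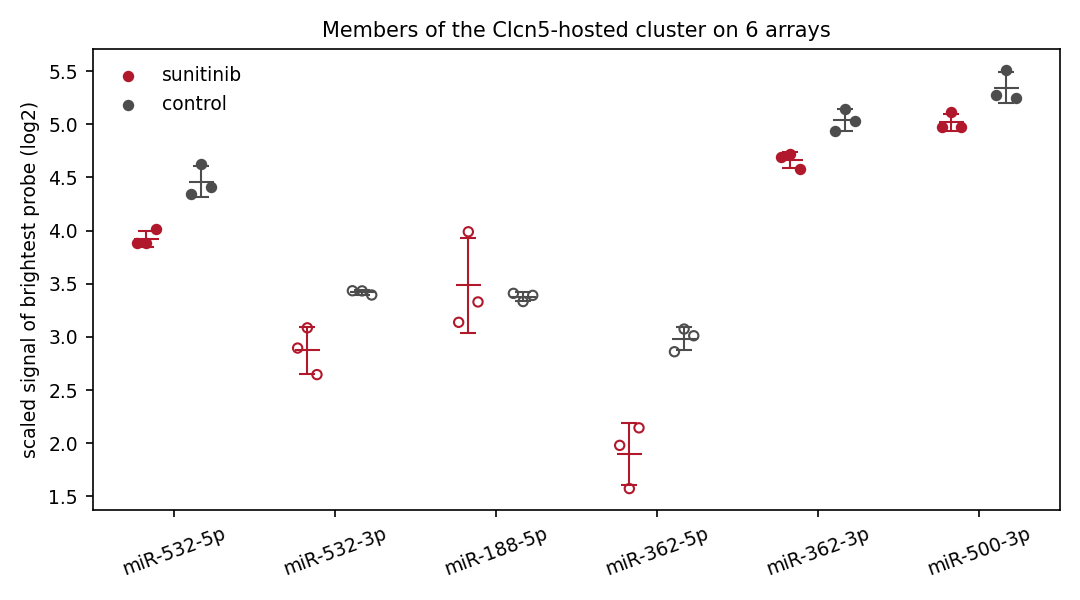
Scaled log2 signal of the brightest probe of 6 members on each array (points, sunitinib left of control), with mean and SD (bars, n = 3 each). Filled points mark the 3 members that were compared, whose sunitinib arrays all lie below their control arrays, and open points mark 3 members too dim to compare.

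All 3 members that were compared were lower in sunitinib, with a median difference of -0.38, while the median over all 237 miRNAs was 0.02 and 112 of them, or 47.3%, were below 0. Ranked from the lowest difference, miR-532-5p stood at 5, miR-362-3p at 13 and miR-500-3p at 18 of 237. Groups that did not overlap, with sunitinib lower, were found for all 3 members and for 9.28% of all miRNAs compared. With Benjamini-Hochberg adjustment over the 237, 1 member, miR-532-5p, passed 0.05 as lower, as did 1.69% of all miRNAs compared. In either direction the share was 3.38%. No weight rests on these counts, since the members were picked with this contrast in view. The 3 had passed the filter on all 6 arrays, not through the control arrays alone. Leaving out any 1 of the 6 arrays left 0 members past the threshold, with differences for miR-532-5p between -0.59 and -0.45. With the normexp background correction, which adds 50 to the signal, the differences were -0.11, -0.10 and -0.11 for miR-532-5p, miR-362-3p and miR-500-3p.

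**Figure D2:**
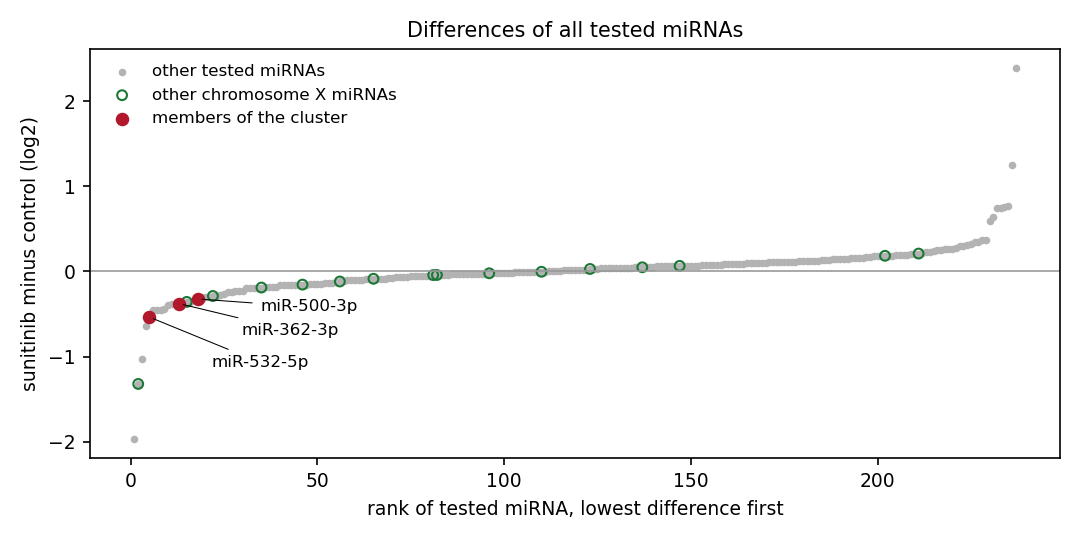
Differences in log2 signal (sunitinib minus control) of all 237 miRNAs compared, in order of size. The 3 members (filled) stand at ranks 5, 13 and 18, and the other 16 chromosome X miRNAs (open circles) are spread along the curve, with miR-223-3p near its low end.

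The other 7 members fell short of that requirement in both groups, so their values are near the limit of the measurement and no difference is computed from them. The brightest probe of miR-532-3p had 2.90, 3.09 and 2.65 in sunitinib, against 3.43, 3.43 and 3.39 in control. It passed the background limit on 0 of 3 arrays with sunitinib and on 1 of 3 with control. The groups did not overlap, and the control arrays lay close together. miR-362-5p had 1.98, 1.57 and 2.15 in sunitinib and 2.86, 3.07 and 3.01 in control, and was well above background on no array. Its sunitinib arrays were again the lower ones. How often the groups of dim miRNAs separate was not counted, so no weight rests on either separation. The dimmest probe that passed the limit had 3.32 to 3.62 on the sunitinib arrays and 3.18 to 3.54 on the control arrays, and every value of miR-362-5p was below these.

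miR-188-5p was also too dim to compare, and its arrays did not separate by group. It had 3.14, 3.99 and 3.33 in sunitinib, against 3.41, 3.33 and 3.39 in control, and passed the background limit on 1 array of each group. Sunitinib replicate 2 was above all control arrays and the other 2 sunitinib arrays were below them. All 4 of its probes were highest on sunitinib replicate 2. The remaining members, miR-188-3p, miR-500-5p, miR-501-3p and miR-501-5p, were well above background on 0 of 6 arrays, with means between 0.02 and 0.35 on the log2 scale. That range is next to the floor of 0, so their order carries no information. Groups without overlap occurred even there and in both directions, with miR-500-5p lower and miR-501-3p and miR-188-3p higher in sunitinib. miR-501-3p was thus near the floor on arrays where miR-500-3p, which has the same seed, was well above background. The probes of miR-501-3p had 12 to 15 bases and those of miR-500-3p 15 to 16, so these signals do not compare their amounts.

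**Figure D3:**
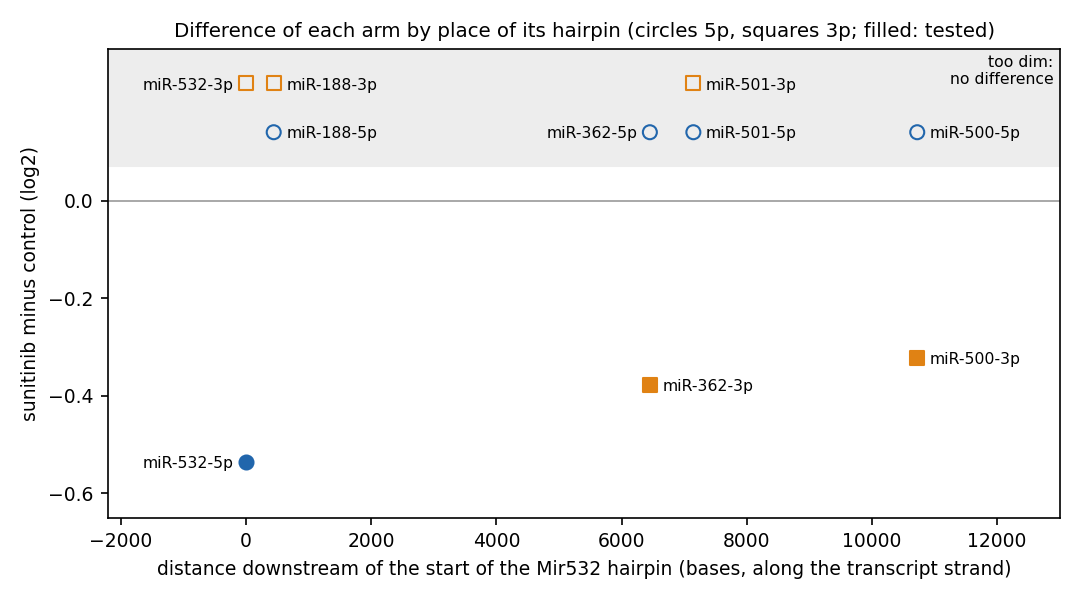
Difference in log2 signal (sunitinib minus control) of each arm against the distance of its hairpin from the start of the Mir532 hairpin, in bases along the transcript. Filled symbols are the 3 members compared, at -0.54, -0.38 and -0.32, and open symbols in the grey strip mark only the places of the 7 members too dim to compare, with no difference drawn.

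Each member had 2 or 4 probes, which differ in length by single bases and share most of their sequence, so they are not independent measurements. The shorter probe of miR-532-5p had 2.34, 2.23 and 2.56 in sunitinib, against 3.32, 3.52 and 3.14 in control. It was well above background on 0 of 6 arrays, so the lower signal of miR-532-5p rests on its longer probe alone. The shorter probes of miR-362-3p and miR-500-3p were well above background on all 6 arrays and differed by -0.34 and -0.40. The 4 probes of miR-362-5p were well above background on no array, and the 2 shortest were at or next to the floor. All 4 probes of miR-188-5p overlapped between the groups.

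The scanner software also gives 1 summed signal per miRNA, and for miR-532-5p it ran against the probe above. The summed signal was 114.8, 93.1 and 80.0 in sunitinib replicates 1 to 3, against 7.19, 8.09 and 5.61 in control replicates 1 to 3. The software's own signals of the 2 probes added up to 4.86, 3.99 and 4.80 in sunitinib and 7.19, 8.09 and 5.61 in control. The summed signal therefore equalled the sum of the probes on every control array and was 23.6, 23.3 and 16.7 times that sum on the sunitinib arrays. On the sunitinib arrays the shorter probe had 0 of 15 spots well above background, and on the control arrays 3, 6 and 1 of 15. For miR-362-3p and miR-500-3p, whose probes were all well above background, the ratio was 1 on all 6 arrays. miR-188-5p had ratios of 37.9 and 34.9 on sunitinib replicates 1 and 3 and of 1 on the other 4 arrays. Such ratios were not limited to sunitinib arrays: miR-532-3p had 134.8 on sunitinib replicate 1, against 58.8, 49.1 and 62.5 on control replicates 1 to 3, and miR-362-5p had 13.8 and 14.5 on control replicates 2 and 3. Over the 237 miRNAs compared and 6 arrays, the ratio was within 1% of 1 in 1178 of 1422 cases and above 10 in 86. Only 4 miRNAs had both kinds of ratio on different arrays, and miR-532-5p was one of them.

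**Figure D4:**
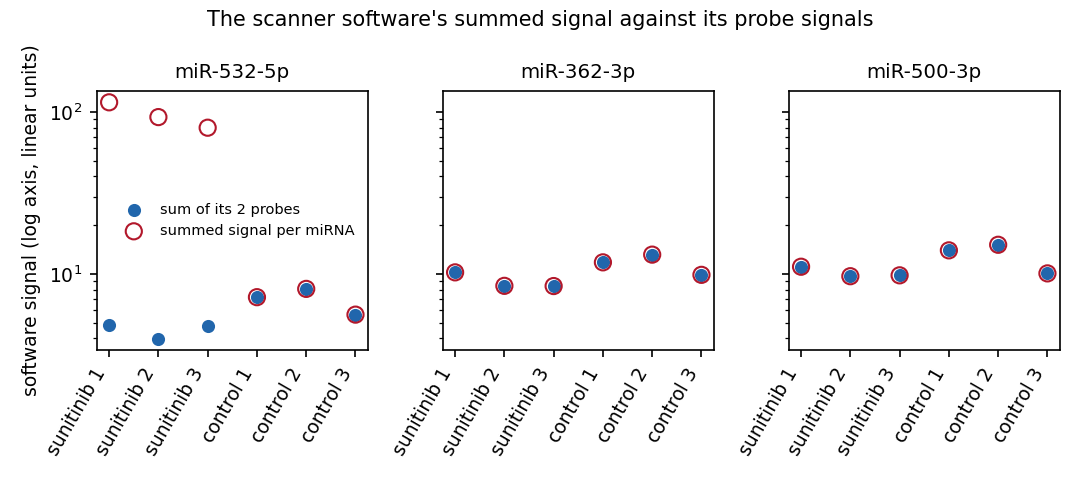
The scanner software's summed signal per miRNA (open circles) and the sum of its own 2 probe signals (filled) on each array, on a log axis. The circles coincide on all arrays for miR-362-3p and miR-500-3p, while for miR-532-5p they part on the 3 sunitinib arrays, at 80.0 to 114.8 against 3.99 to 4.86.

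The deposited value table, made by the authors on a log2 scale whose centring is not given in the sources used here, held all 10 members. In it miR-532-5p had 3.55, 3.36 and 3.50 in sunitinib, against 4.04, 4.09 and 3.95 in control, a difference of -0.56. miR-362-3p differed by -0.31 and miR-500-3p by -0.36, again without overlap. Of the 7 dim members, 6 overlapped between the groups in this table, all but miR-362-5p. These values come from the same 6 arrays and are no second measurement.

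Apart from the difference between the groups, the 3 members deviated partly together. Deviations of the arrays from their group means had a Pearson r of 0.44 between miR-532-5p and miR-362-3p, 0.62 between miR-532-5p and miR-500-3p and 0.77 between miR-362-3p and miR-500-3p, over 6 arrays. Control replicate 2 was the highest control array for all 3, at 0.16, 0.10 and 0.17 above its group mean. The points share the array and its scaling, and the mean r was 0.61, against 0.89 without scaling and 0.46 with the 75th percentile over all probes, so these values are a description only. Whether the differences of the 3 members differ in size was not tested. That of miR-532-5p was 0.16 below that of miR-362-3p. The log2 ratio of this pair had an SD of 0.15 over sunitinib arrays and 0.05 over control arrays, and within slide row 2 its order turned. The difference of miR-532-5p was 0.21 below that of miR-500-3p, with SDs of the log2 ratio of 0.13 and 0.05. Within slide row 2 this order held, at -0.45 against -0.37, with 1 sunitinib array. The difference of miR-362-3p was 0.05 below that of miR-500-3p, with SDs of 0.06 and 0.08.

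Other miRNAs of chromosome X served as a comparison. By name, 134 miRNAs on the arrays other than the members lay only on chromosome X in the RefSeq table, and 16 of them were well above background and could be compared. Their median difference was -0.04. Of the 16, 11 were below 0, 1 passed the threshold as lower and 0 as higher. The 1 was miR-223-3p, which is abundant in neutrophils and other myeloid cells. Only this 1 of the 16 had groups that did not overlap with sunitinib lower. The next lowest, miR-503-5p and miR-652-5p, had -0.36 (SE 0.14) and -0.29 (SE 0.12), and their groups overlapped. At the other end, miR-361-5p had 0.21 (SE 0.08) and miR-322-5p 0.18 (SE 0.08), both without overlap and neither past the threshold.

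Several leukocyte miRNAs were lower in sunitinib alongside the members. Of 7 listed, 6 were compared and 3 were lower past the threshold (miR-511-3p, miR-223-3p and miR-142a-3p), while miR-142a-5p was well above background on 0 of 6 arrays. miR-511-3p passed the filter through the 3 control arrays alone and was below the limit on all 3 sunitinib arrays, so its call follows in part from the filter and its sunitinib level is only a bound. The summed linear signal of all 7 listed leukocyte miRNAs was 602.5 to 682.8 in sunitinib, against 831.7 to 913.2 in control. Most of the fall in this sum came from miR-223-3p, with log2 signals of 6.91 to 7.04 in sunitinib against 8.22 to 8.47 in control. The sum therefore does not show a fall across the 7. The other leukocyte miRNAs did not pass, with 0.35 for miR-150-5p, 0.15 for miR-155-5p and -0.01 for miR-342-3p. For miR-155-5p every sunitinib array lay above every control array. No miRNA passed among the 4 erythroid, 2 endothelial, 2 smooth muscle and 6 cardiomyocyte miRNAs listed, with medians of 0.07, -0.10, -0.15 and 0.06. Each of these miRNAs was well above background on all 6 arrays. The medians cover single miRNAs that lay further out. The cardiomyocyte miR-208b-3p had 1.25 (SE 0.53), with groups that overlapped. The smooth muscle miR-145a-5p had -0.23 (SE 0.08) and was the only one of these without overlap. The part of leukocyte RNA in the lower signal of the members was not tested. In bulk tissue, fewer cells of a type and less RNA per cell cannot be told apart.

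Among the 234 other miRNAs compared, the 5 whose signal over the 6 arrays was most like that of miR-532-5p were miR-7a-5p (Pearson r 0.98), miR-223-3p (0.96), miR-142a-3p (0.95), miR-146a-5p (0.94) and miR-511-3p (0.93). All 5 were lower in sunitinib without overlap, miR-511-3p with sunitinib values below the background limit, so the likeness contains the difference between the groups. miR-362-3p, with an r of 0.93, had 4 other miRNAs above it in this order, and miR-500-3p, with 0.92, had 5. Only 1 of the 5 stayed among the top 5 when deviations from the group means were used, namely miR-7a-5p, with 0.99. miR-7a-5p had 3.43, 3.45 and 3.59 in sunitinib, against 3.71, 4.02 and 3.83 in control, a difference of -0.36 (SE 0.10). On sunitinib replicate 2 it was below the dimmest probe that passed the background limit there, at 3.62. It thus passed the filter through the control arrays alone, where it was higher, and its difference follows in part from the filter. The differences of miR-223-3p and miR-146a-5p, at -1.32 (SE 0.09) and -1.02 (SE 0.25), were larger in size than that of any member compared.

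Place on the slide was not balanced between the groups. The 3 control arrays and 1 sunitinib array, replicate 3, lay in row 2, and the other 2 sunitinib arrays lay in row 1. Within row 2 the differences were -0.45 for miR-532-5p, -0.46 for miR-362-3p and -0.37 for miR-500-3p, against 0.02 for the median of all miRNAs compared. These rest on 1 sunitinib array and carry no test. With the row as a block, the limma fit put 0 members and 1 of the 237 miRNAs past the threshold.

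**Figure D5:**
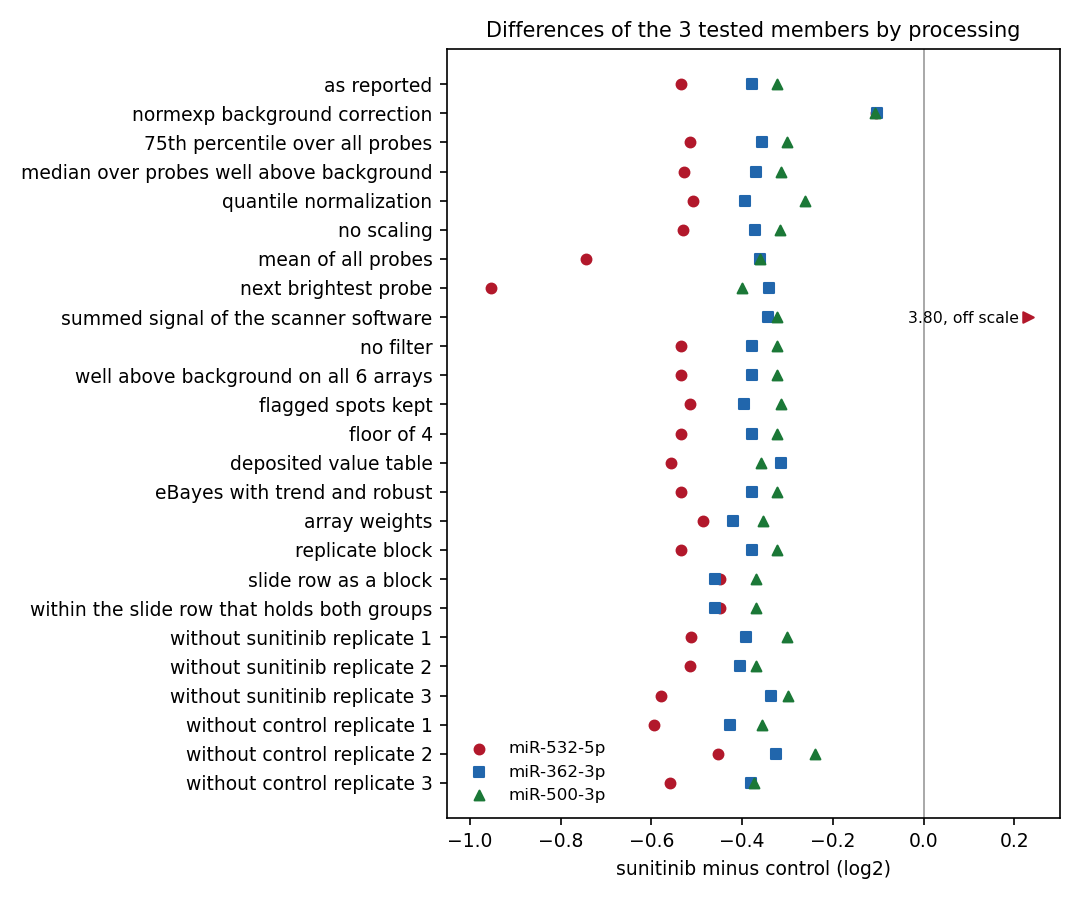
Differences in log2 signal (sunitinib minus control) of the 3 members compared, as reported and under 24 other ways of processing or with 1 array left out. Points lie between -0.95, from the shorter miR-532-5p probe that was not well above background, and -0.10, except that of miR-532-5p in the summed signal, at 3.80, which is off the scale.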

How the data were processed

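Spot intensity on a linear scale was deposited by the authors in 6 scanner files, background-subtracted by Agilent Feature Extraction 10.7.1.1 with build mm9, per the file headers. The deposited value table holds log2 values made by the authors; how they were scaled is not given in the sources used here, and each of its columns followed its own array best (r across miRNAs 0.92 to 0.95). Control spots were dropped, as were spots that the software marked as uneven or as outliers among replicate spots. The arrays were aligned on their 75th percentile, taken over the 393 probes that passed the background limit on every one of the 6 arrays. Scaled signals under 1 were set to 1, and the mean of log2 values over the spots of a probe was used. A probe counted as well above background where at least 50% of its spots did. The 2 groups were compared with limma 3.58.1 (lmFit and eBayes, R 4.3.3) and Benjamini-Hochberg adjustment over 237 miRNAs. The members, marker lists and rules were chosen with earlier results of these data known. All 10 members were named in any case, and the 5 miRNAs most like miR-532-5p by Pearson r. The number of arrays limits the precision. When an array was left out, the scaling and the set of miRNAs compared were kept.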

Additional observations from a re-analysis of the deposited data

Results flagged for a closer look

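The scanner software's summed signal of miR-532-5p, which is outside the probe signals that the comparison of the groups rests on, was far above the level of the control arrays on all 3 sunitinib arrays. After the same scaling its log2 difference was 3.80, while the probe well above background differed by -0.54.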

How the results depend on the processing

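All alternatives were planned. miR-362-3p and miR-500-3p were below 0 in all 24 alternatives (-0.46 to -0.10 and -0.40 to -0.11) and miR-532-5p in 23, passing as lower in 9 of 23, while miR-362-3p passed in 3 and miR-500-3p in 0. Some of the 24 could not change a difference by construction: the filter settings, eBayes with trend and robust, and the replicate block. The slide row as a block gave the same differences as the comparison within the row that held both groups. The count of signs is therefore not a count of separate checks. With the summed signal, the direction of miR-532-5p turned, to 3.80, where the software's value departs from the sum of its probes on the sunitinib arrays. The members' median of -0.38 became -0.11 with normexp. The added offset of 50 shrinks differences of dim probes by construction, but this setting also starts from the mean spot signal and subtracts background anew. The share of the offset in the change was not tested. The 1 member past the threshold became 2 with the median over probes well above background and with array weights, and 0 with normexp, no scaling, no filter, eBayes with trend and robust, the slide row as a block and without any 1 array. With quantile normalization the 1 member was miR-362-3p, while miR-532-5p did not pass. With the summed signal the 1 member was miR-532-5p, but as higher in sunitinib. The 8 miRNAs past the threshold among all compared became 4 with normexp, quantile normalization or no scaling, 13 with the percentile over all probes or array weights, 2 with the summed signal, 3 without a filter, 1 with the slide row as a block and 2 to 8 without 1 array. With the replicate block, 0 members and 2 miRNAs passed. Deviations of same-numbered samples from their group means correlated at 0.18, 0.22 and -0.06. Samples with different numbers were not correlated for comparison, so these values cannot show whether the numbers pair the samples. The members' mean within-group r of 0.61 was 0.89 without scaling. The low signal of the members limits precision: 7 of 10 were not well above background, and counting a probe with any spot above the limit gave 4 detected members in place of 3.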
